A study of Mus musculus with 15 samples.

Results

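Long intergenic non-coding RNAs (lincRNAs) are transcripts that lie between protein-coding genes and are not known to be translated. Some stay in the nucleus, where they bind chromatin or proteins, and others act in the cytoplasm. Many are spliced and polyadenylated like mRNAs, and as a class they are usually made at lower levels and in fewer cell types than mRNAs. The array used here, for mouse mRNAs and long non-coding RNAs, carries 732 probes named for such transcripts, which are 1.20% of its 60915 probes that are not negative controls. They were chosen by name alone: 649 are called mouselincRNA and 83 are called MM9LINCRNAEXON, the latter after exons of lincRNAs. No measured value entered the choice.

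The probes were read on 15 arrays of liver RNA from C57BL/6 mice, 1 array per sample, in 3 groups of 5. Sham mice (sham) were operated on without occlusion of the vessels. In the ischaemia-reperfusion group (I/R), blood flow to 70% of the liver was stopped for 75 min and then restored for 2 h. The preconditioned group (IPC) went through the same 75 min and 2 h after a first, brief ischaemia of 10 min that was followed by 10 min of flow. The series' design names 18 mice, 6 per group. The labels do not say which mouse each array came from. The p-values below therefore measure how far these arrays spread, and that spread may be technical.

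A probe name consists of a number with a plus or minus sign, as in mouselincRNA0441+ and mouselincRNA0413-. The 732 probes cover 403 numbers, of which 329 have both a plus and a minus probe and 74 have 1. The sources used here do not state what the sign means, and they pair none of these names with a gene symbol, a position or a sequence. The probes are therefore described under their array names, no function can be given for a single one, and the labelled tissue could not be checked against liver marker genes. Each name stands for 1 spot per array.

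Values are the background-corrected intensity on a log2 scale, relative to the 75th percentile of all probes on the same array, so that 0 means as bright as that percentile and 1 unit is a doubling. A probe is said to be detected where the scanner software marked its spot as well above background. Arrays fell into 2 sets by scan time, called slide 1 and slide 2 here. That each set was 1 physical slide is inferred from the shared scan time alone. All 5 sham arrays were on slide 2 together with 3 of the I/R arrays (1 to 3). The other I/R arrays (4 and 5) were on slide 1, as were all 5 IPC arrays. The 75th percentile was higher on slide 1 (8.47 to 8.76 in log2 intensity) than on slide 2 (8.06 to 8.30), and no spot was saturated. Sham and IPC arrays shared no slide, so a direct difference between these groups and a difference between slides cannot be told apart. I/R arrays on both slides allow the other contrasts to be taken within a slide.

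Most of the lincRNA probes were never marked as well above background in liver. Of the 732, 459 (62.7%) were detected on none of the 15 arrays, 102 (13.9%) on all 15, and 171 on some. A looser mark, for a positive and significant signal, was set on a mean of 43.9%, 45.8% and 50.6% of them per array in sham, I/R and IPC. The ASMM10P probes, which make up most of the array (58141), were undetected on all arrays in 32.6% of cases and detected on every array in 46.8%. The 1104 humanlincRNA probes, on the same array, were detected nearly as often as the mouse ones: 64.2% on no array and 11.3% on all 15. Among the mouse probes, 24.1% of the MM9LINCRNAEXON and 12.6% of the mouselincRNA probes were detected on every array.

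The detected share of the 732 probes was 23.8%, 22.1%, 20.5%, 22.8% and 20.2% on the sham arrays. It was 19.8%, 18.9%, 18.7%, 29.0% and 26.5% on I/R arrays 1 to 5, and 28.4%, 26.5%, 28.1%, 23.0% and 25.1% on the IPC arrays. The IPC arrays overlapped the sham arrays only in that IPC array 4 lay within the sham range. The I/R group was split: its arrays on slide 1 lay within or just above the IPC range, and its arrays on slide 2 lay below every sham array.

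The means were 21.9% ± 1.52 (SD, n = 5) in sham, 22.6% ± 4.81 in I/R and 26.2% ± 2.26 in IPC. Over slides, the mean share was 26.7% on slide 1 and 20.9% on slide 2. The ASMM10P probes moved the same way, with 59.1% detected on slide 1 and 53.7% on slide 2, as did the humanlincRNA probes (23.5% and 17.8%). Within the I/R group alone, which spans both slides, 27.7% of the lincRNA probes were detected on slide 1 and 19.1% on slide 2. In all, 64 lincRNA probes were detected on at least 1 array of slide 1 and on none of slide 2, and 12 the other way round.

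**Figure D1:**
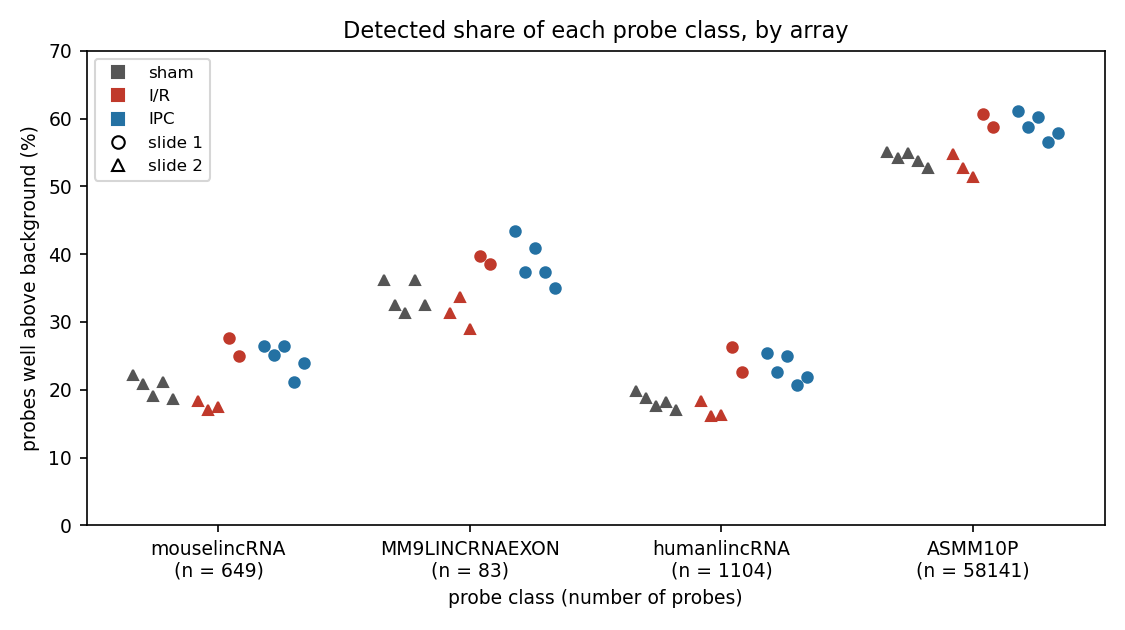
Share of probes well above background (vertical axis, percent) on each array, for 4 probe classes (horizontal axis), with sham in grey, I/R in red and IPC in blue, circles for slide 1 and triangles for slide 2. In each class the I/R arrays of slide 1 lie above those of slide 2, and the mouselincRNA and humanlincRNA classes lie far below the ASMM10P class.

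The lincRNA probes were also dimmer as a class. On each array, the median level of the 732 probes was lower than that of the ASMM10P probes, by a mean difference of -2.83 ± 0.21 (SD over 15 arrays, from -3.15 to -2.42). On every sham array the median of the 732 probes equalled their lower quartile, at the floor where the lowest values repeat (-5.32 on sham array 1). The size of the gap therefore depends on that floor. Part of that gap lies in the undetected probes: among probes detected on all 15 arrays, the difference was -0.71 ± 0.13. Against humanlincRNA probes the difference of medians was 0.05 over all probes and 0.28 over those detected on all arrays. Over all probes, both medians lay at the floor on every sham array, so the 0.05 says little about their levels. Brightness depends on the probe's own sequence as well as on its target, so these are differences between sets of probes and not between amounts of RNA.

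A small set of the lincRNA probes was bright. Of the 732, 28 (3.83%) lay above the 75th percentile on all 15 arrays, against 22.3% of the ASMM10P probes, and 10 had a mean more than 3 log2 units above it. The 5 with the highest mean over the 15 arrays were mouselincRNA0161- (7.49), mouselincRNA0706+ (6.67), MM9LINCRNAEXON10569- (6.45), mouselincRNA0344- (6.42) and MM9LINCRNAEXON10664+ (5.61). All 5 were detected on every array.

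Levels of mouselincRNA0161- were 7.70, 7.72, 7.77, 7.53 and 7.45 on the sham arrays, 7.29, 7.25, 6.80, 7.69 and 7.73 on the I/R arrays, and 7.53, 7.62, 7.27, 7.48 and 7.46 on the IPC arrays. The 3 groups overlapped, and the 3 I/R arrays of slide 2 were among the 4 lowest of all 15. Levels of mouselincRNA0706+ were 7.05, 6.83, 6.90, 6.89 and 6.70 in sham, 6.41, 6.30, 6.30, 6.98 and 6.94 in I/R, and 6.74, 6.63, 6.36, 6.60 and 6.37 in IPC. Here I/R arrays 4 and 5 were as high as sham, while I/R arrays 1 to 3 were below every sham array.

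MM9LINCRNAEXON10569- showed the same split, with 6.74, 6.63, 6.67, 6.68 and 6.59 in sham, 6.27, 6.21, 6.27, 6.61 and 6.65 in I/R, and 6.37, 6.39, 6.16, 6.32 and 6.13 in IPC. MM9LINCRNAEXON10664+ stood at 5.82, 5.73, 5.86, 5.71 and 5.84 in sham, at 5.45, 5.44, 5.36, 5.76 and 5.76 in I/R, and at 5.62, 5.45, 5.57, 5.42 and 5.36 in IPC. For both, every IPC array lay below every sham array.

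Arrays of a group scattered more for lincRNA probes than for ASMM10P probes. Among probes detected on all 15 arrays, the median SD within a group was 0.27 for the lincRNA probes and 0.13 for the ASMM10P probes, and humanlincRNA probes stood at 0.28. Sets of arrays stood apart within a group. For 20 of the 102 lincRNA probes detected on all arrays (19.6%), I/R arrays 4 and 5 were both above the other 3 I/R arrays by more than those 3 spanned, against 7.97% of all probes; the reverse held for 3 (2.94%, against 14.3%). In the IPC group, arrays 1 and 5 were both below the other 3 in this sense for 12 of the 102 (11.8%, against 4.01%). They were both above for 4 (3.92%, against 1.04%). These 2 IPC arrays lay on the same slide as the other IPC arrays. Sham array 3 was the lowest sham array for several of the probes described below.

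Few numbers had both probes detected on every array. Among all 732 probes, 13.9% were detected on all 15 arrays and 62.7% on none, so the counts of pairs are to be read beside those shares. Whether detection of 1 sign depends on the other was not tested. Of the 329 numbers with both probes, 81 had at least 1 detected on all 15 arrays. In 54 of these the partner was detected on no array, in 20 on some arrays and in 7 on all 15. The bright member was the minus probe in 33 of the 54 and the plus probe in 21. Neither probe was detected on any array for 131 numbers (39.8%). Across the 329 numbers, which share arrays and scale, the mean levels of plus and minus probes had Pearson's r = 0.03 and Spearman's rho = -0.01, given as a description.

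mouselincRNA0344- and mouselincRNA0161- are examples of the first kind. Their plus partners had mean levels of -5.24 ± 0.08 (SD, n = 5) on the sham arrays, where undetected probes pile up. The 7 numbers detected with both signs on every array were MM9LINCRNAEXON10664, mouselincRNA0047, mouselincRNA0522, mouselincRNA0706, mouselincRNA0939, mouselincRNA1040 and mouselincRNA1235. For mouselincRNA0706 the plus probe had a mean of 6.67 and the minus probe -0.92, and for mouselincRNA1235 it was the minus probe that was brighter (2.86, with -1.85 for the plus probe).

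**Figure D2:**
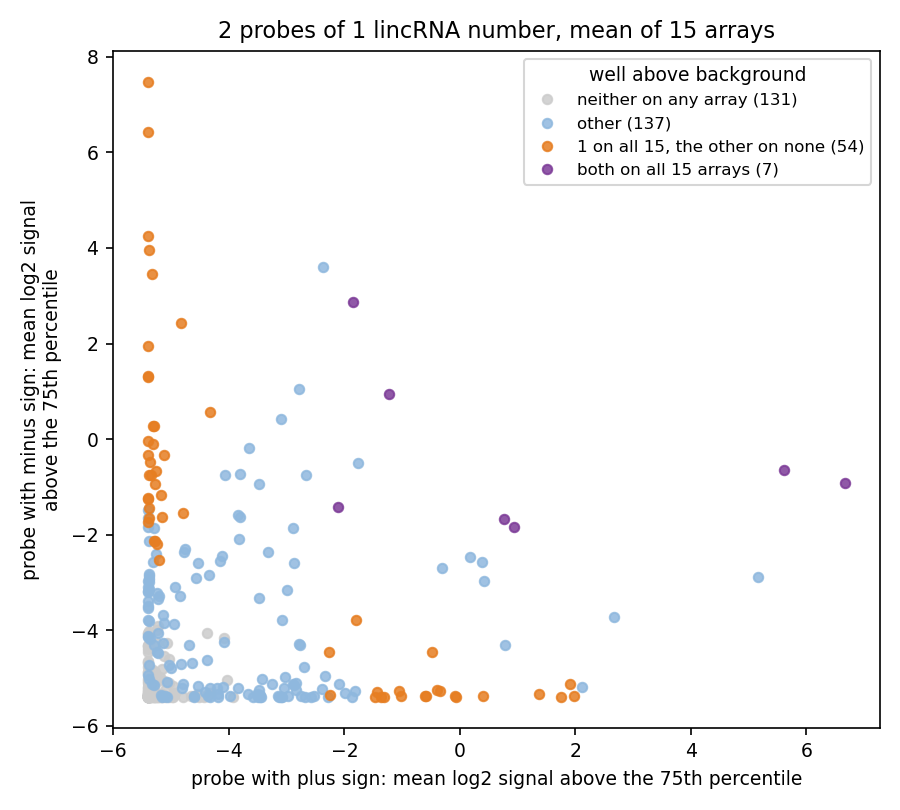
Mean level over 15 arrays of the minus probe (vertical axis) against the plus probe (horizontal axis) for the 329 lincRNA numbers that have both, in log2 units relative to each array's 75th percentile, coloured by detection. Most numbers lie along 1 axis or in the lower left corner, and 7 have both probes detected on every array.

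Differences between groups were tested for probes detected on at least 5 of the 15 arrays, 34985 in all, among them 193 of the 732 lincRNA probes (32 MM9LINCRNAEXON and 161 mouselincRNA). The other 539 were not tested: 538 were detected on fewer arrays and 1 had a spot marked as an outlier. A probe detected on 5 arrays of 1 group alone enters this set because of that group. A probe was called changed at a limma adjusted p under 0.05 over all tested probes.

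Fewer of the tested lincRNA probes than of all probes, by share, were called in I/R against sham. The median SD within a group was 0.40 for the tested lincRNA probes and 0.16 for the tested ASMM10P probes. A larger SD makes a call harder at an equal difference, and its part in the lower share was not tested. Of the 193, 31 were called (16.1%), where 30.9% of all tested probes were. The 19 that were higher in I/R (9.84%) stand against 14.5% of all probes, and the 12 that were lower (6.22%) against 16.4%. Calls in which the 5 I/R arrays did not overlap the 5 sham arrays numbered 19 of 193 (9.84%), against 21.9% of all probes. Among probes detected on all 15 arrays the shares lay closer, 31 of 102 lincRNA probes (30.4%) and 37.0% of all. The median difference was -0.04 over the tested lincRNA probes and -0.03 over all tested probes. By name, 8 of 32 MM9LINCRNAEXON probes (4 higher, 4 lower) and 23 of 161 mouselincRNA probes (15 higher, 8 lower) were called.

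Of the 31 calls, 4 were at least 2-fold higher and 1 at least 2-fold lower, and the median size was 0.60 log2 units. mouselincRNA0413- rose most. Its levels were -1.21, -1.24, -2.51, -1.06 and -1.46 on the sham arrays, -0.36, -0.36, 0.08, -0.20 and -0.27 on the I/R arrays, and -0.99, -0.36, -0.32, -0.59 and -0.55 on the IPC arrays. Sham array 3 was far below the other sham arrays, and the groups did not overlap: the lowest I/R array was above the highest sham array. The difference between I/R and sham was 1.27 (SE 0.23, adjusted p = 0.000763), or 2.42-fold.

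mouselincRNA0441+ stood at -0.41, -0.63, -1.53, -0.41 and -0.56 in sham, at 0.34, 0.33, 0.07, 0.61 and 0.57 in I/R, and at 0.21, 0.49, 0.39, 0.23 and 0.20 in IPC. All treated arrays were above all sham arrays, and I/R and IPC overlapped. It was 2.13-fold higher in I/R than in sham (log2 difference 1.09, SE 0.18, adjusted p = 0.000475). mouselincRNA1181+ rose by 0.91 (SE 0.16, adjusted p = 0.000552), with I/R arrays between -1.08 and -0.96 and sham arrays between -2.65 and -1.65. For both probes the lowest value was that of sham array 3.

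Arrays within a group lay close together for the bright probe mouselincRNA0344-. It stood at 6.03, 6.08, 6.20, 5.99 and 6.09 in sham, at 6.81, 6.74, 6.70, 6.61 and 6.70 in I/R, and at 6.54, 6.58, 6.39, 6.26 and 6.58 in IPC. The 3 groups did not overlap: I/R was highest, IPC was between, and sham was lowest. The rise in I/R was 1.55-fold (log2 difference 0.63, SE 0.07, adjusted p = 1.17e-05). MM9LINCRNAEXON11569- rose by a similar amount, 0.69 (SE 0.08, adjusted p = 1.23e-05), from a range of -0.14 to 0.12 in sham to one of 0.48 to 0.88 in I/R. mouselincRNA0640- rose by 0.60, mouselincRNA0484- by 0.90 and MM9LINCRNAEXON11496+ by 0.68, in each case without overlap between the arrays.

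mouselincRNA0133- was 2.33-fold higher in I/R (log2 difference 1.22, SE 0.23, adjusted p = 0.00124), with 1 sham array (0.83) above the lowest I/R array (0.78). mouselincRNA0996- rose by 1.11 (SE 0.27, adjusted p = 0.00671) and differed from the others in the IPC group. Its levels were -1.22, -1.32, -1.17, -1.16 and -1.44 in sham and -0.39, -0.20, 0.17, -0.25 and -0.08 in I/R. On the IPC arrays it stood at -1.65, -0.20, -0.32, -0.42 and -1.74. IPC arrays 1 and 5 were below every sham array, and IPC arrays 2 to 4 lay within or just below the I/R range.

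mouselincRNA1466-, which rose by 0.80 in I/R, had the same low pair of IPC arrays, at -1.46 and -2.11 against -0.70 to -0.58 on the other 3. mouselincRNA0771- was another such probe: 3.18 to 3.32 in sham, 3.58 to 4.00 in I/R, 3.64 to 3.70 on IPC arrays 2 to 4, and 2.86 and 2.83 on IPC arrays 1 and 5. All 12 lincRNA probes that were low on this pair of arrays carried a minus sign, where 58 of the 102 probes detected on all arrays do. Of the 20 that were high on I/R arrays 4 and 5, 14 carried a plus sign. These lists were formed from these values, so the counts describe them and were not tested.

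Among the 12 probes lower in I/R, mouselincRNA1011+ fell furthest. It stood at -0.75, -0.44, -0.67, -1.06 and -0.42 in sham, at -1.97, -1.91, -1.83, -1.85 and -1.26 in I/R, and at -1.83, -2.01, -2.09, -1.83 and -2.06 in IPC. Every treated array was below every sham array, and I/R array 5 was the closest to sham. The level was 2.14-fold lower in I/R (log2 difference -1.10, SE 0.14, adjusted p = 5.55e-05). The minus probe of the same number was detected on no array.

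mouselincRNA0453+ fell by a small but regular amount. Its levels were 5.29, 5.47, 5.34, 5.34 and 5.32 in sham, 5.10, 5.00, 5.03, 5.16 and 5.10 in I/R, and 5.10, 5.13, 4.95, 5.09 and 5.01 in IPC, and no treated array reached a sham array. The difference between I/R and sham was -0.27 (SE 0.05, adjusted p = 0.00105). mouselincRNA0722- fell by 0.57 and mouselincRNA0735+ by 0.50. For mouselincRNA0735+ the I/R arrays stood at 1.93, 1.93, 0.96, 1.92 and 1.92, with I/R array 3 far below the others. The call was kept without I/R array 3 and lost without sham array 1, 2, 3 or 5 or IPC array 1, 4 or 5, taken 1 at a time. Of the 31 called probes, 24 have a probe of opposite sign. Of these partners 10 were tested, and none was called. The shares called were 16.1% of the 193 tested lincRNA probes and 30.9% of all tested probes, so 10 partners leave room for few calls. Whether calls of the 2 signs are linked was not tested.

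**Figure D3:**
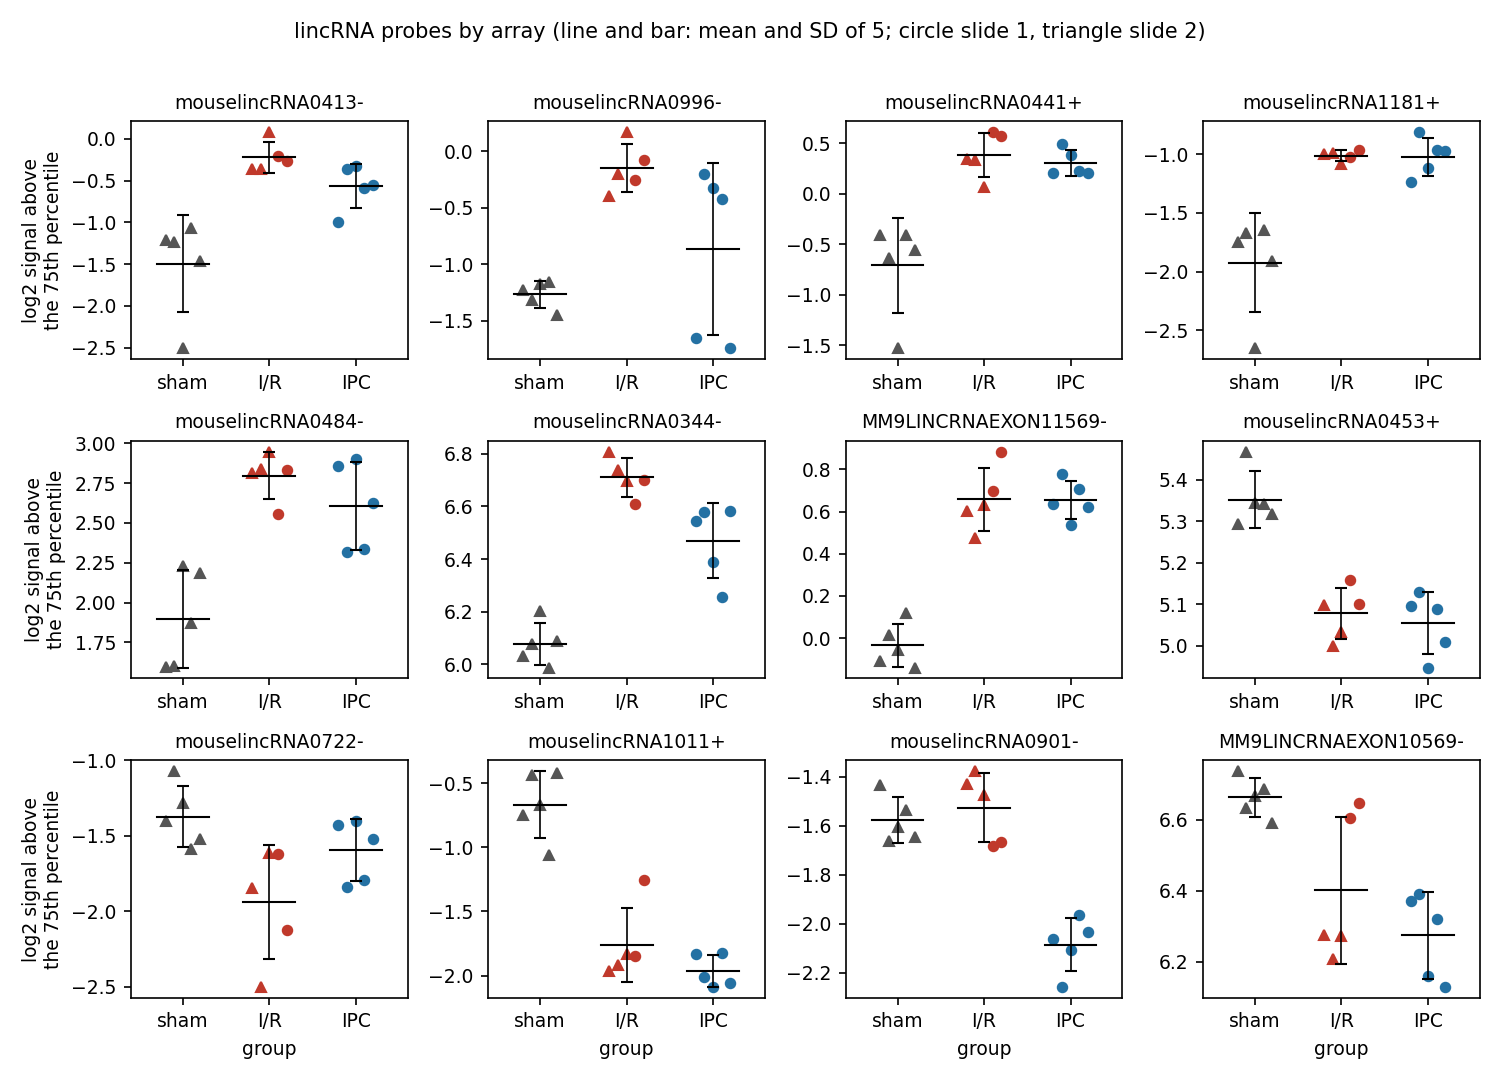
Levels of 12 lincRNA probes on each array (vertical axis, log2 units relative to the array's 75th percentile, with a scale of its own in each panel) in sham, I/R and IPC (horizontal axis), with circles for slide 1, triangles for slide 2, and lines and bars for the mean and SD of 5 arrays. mouselincRNA0413-, mouselincRNA0441+ and mouselincRNA1011+ differ from sham in both treated groups, mouselincRNA0996- is low on 2 IPC arrays, and MM9LINCRNAEXON10569- splits the I/R arrays by slide.

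Slide entered this comparison through I/R arrays 4 and 5. Slide as a block in the model leaves the estimate to the 8 arrays of slide 2. With it, 49 lincRNA probes were called (25.4%), against 35.0% of all probes. Of these 49, 16 were higher (8.29%, against 16.4% of all) and 33 lower (17.1%, against 18.6%). With slide 2 fitted alone, 43 lincRNA probes were called (22.3%), against 28.9% of all probes. The median difference over the 193 probes was -0.15 with the block, against -0.04 over all probes. The larger number of lower calls included the bright probes described above: mouselincRNA0706+ had a difference of -0.54 (SE 0.09, adjusted p = 0.000806) with the block and -0.29 (adjusted p = 0.14) without it, and mouselincRNA0161- had -0.52 (adjusted p = 0.00385) and -0.28 (adjusted p = 0.163). Of the 31 probes called without the block, 27 were called in the same direction with it, and the 4 others kept their sign. Those 4 were MM9LINCRNAEXON10565+, mouselincRNA1466-, mouselincRNA1478+ and mouselincRNA1512+.

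Few of the tested lincRNA probes were called different between IPC and I/R. Of the 193, 3 were called (1.55%), 1 higher and 2 lower, against 7.78% of all tested probes (3.45% higher, 4.33% lower). In all 3 the IPC arrays did not overlap the I/R arrays. Calls without overlap were thus 1.55% of the 193, against 6.35% of all tested probes. None changed by 2-fold. The median difference was 0.07 over the 193 probes and 0.01 over all, and with slide as a block it turned to -0.13 over the 193 probes, against 0.00 over all. The mean was higher in IPC for 113 of the 193 without the block and for 68 with it. Among probes detected on all 15 arrays, 4 of 102 were called (3.92%), against 10.8% of all.

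The firmest of the 3 was mouselincRNA0901-. It stood at -1.43, -1.66, -1.60, -1.54 and -1.64 in sham, at -1.43, -1.38, -1.48, -1.68 and -1.67 in I/R, and at -2.06, -2.26, -2.11, -1.97 and -2.03 in IPC. Sham and I/R overlapped, and every IPC array was below every other array. The difference between IPC and I/R was -0.56 (SE 0.08, adjusted p = 0.00035), or 1.47-fold. On slide 1 alone it was -0.41 (SE 0.09, adjusted p = 0.0653). Without IPC arrays 1 and 5 it was -0.58 (adjusted p = 0.00471).

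MM9LINCRNAEXON10136+ was the probe higher in IPC. Its levels were -0.98, -1.14, -1.17, -1.36 and -1.12 in I/R and -0.92, -0.72, -0.97, -0.85 and -0.84 in IPC, and the sham arrays, from -1.16 to -0.88, overlapped both. The difference between IPC and I/R was 0.29 (SE 0.08, adjusted p = 0.035), and without IPC arrays 1 and 5 it was 0.30 (adjusted p = 0.129). The third was mouselincRNA0344-, described above, which was 1.18-fold lower in IPC than in I/R (log2 difference -0.24, SE 0.07, adjusted p = 0.049) while still above sham. With slide as a block its difference was -0.18 (adjusted p = 0.27), and without IPC arrays 1 and 5 it was -0.30 (adjusted p = 0.0565).

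With slide as a block, 11 lincRNA probes were called in this comparison (5.70%), against 7.22% of all probes. Of these 11, 1 was higher (0.52%, against 4.44% of all) and 10 lower (5.18%, against 2.77%). On slide 1 alone, 2 lincRNA probes were called (1.04%), against 2.47% of all probes. The block leaves the estimate to I/R arrays 4 and 5 on 1 side. The largest difference under it among the probes described here was that of mouselincRNA1040+, at -1.36 (SE 0.28, adjusted p = 0.0122), where without the block it was -0.44 (adjusted p = 0.549). That probe stood at 0.44, 0.09, 0.92, 2.10 and 1.94 on the I/R arrays, at 0.74, 0.94, 0.80, 0.58 and 0.26 on the IPC arrays, and at 1.30, 1.44, 0.98, 1.25 and 0.32 in sham. I/R arrays 4 and 5 were the highest of all 15.

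Against sham, the preconditioned group had 38 called lincRNA probes of 193 (19.7%), against 30.0% of all tested probes. Of these, 20 were higher (10.4% of the 193, against 13.5% of all) and 18 lower (9.33%, against 16.4%). This split depends on the scale. With the percentile taken from the probes detected on every array, 26 of 35 calls were higher. With the median as the scale 14 of 38 were, and with normexp background correction and the 75th percentile 16 of 48. The array as a whole moved with these scales too. Over all probes the median difference was 0.06, -0.10 and -0.06 in turn, against -0.01 in the main fit. Over the 193 it was 0.14, -0.02 and -0.07, against 0.07. The split of the calls over all probes is not given for these scales. Quantile normalization left the split near even, with 19 of 36 higher without normexp and 22 of 39 with it. For I/R against sham it moved from 19 of 31 to 22 of 28 with the first of these scales. Calls without overlap between the arrays numbered 25 of 193 (13.0%), against 24.1% of all probes. Among probes detected on all 15 arrays, 33 of 102 were called (32.4%), against 36.0% of all probes. Sham and IPC arrays lay on different slides throughout.

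This comparison uses the same sham arrays as that of I/R with sham, so the values of the 2 are given side by side and are not independent. The differences of IPC and I/R from sham were 1.01 and 1.09 for mouselincRNA0441+, 0.90 and 0.91 for mouselincRNA1181+, 0.69 and 0.69 for MM9LINCRNAEXON11569-, 1.29 and 1.22 for mouselincRNA0133-, and -1.30 and -1.10 for mouselincRNA1011+. Smaller in IPC were those of mouselincRNA0413- (0.93 and 1.27) and mouselincRNA0640- (0.32 and 0.60), for which the difference between IPC and I/R did not pass the test.

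mouselincRNA0047- was higher in IPC by 0.71 (SE 0.15, adjusted p = 0.00241), with levels of -1.72, -1.76, -1.76, -2.15 and -1.79 in sham, -1.18, -1.25, -1.43, -1.33 and -1.47 in I/R, and -1.0, -1.42, -0.76, -1.61 and -0.86 in IPC. Every treated array was above every sham array. mouselincRNA1188- was lower in IPC by 0.59 (adjusted p = 0.01), with IPC arrays 1 and 5 at -0.50 and -0.46 and the other 3 between 0.25 and 0.36, and the sham arrays between 0.51 and 0.75. Without IPC arrays 1 and 5 its difference was -0.28 (adjusted p = 0.0105), and with slide as a block it was -0.53 and no longer called (adjusted p = 0.201). With those 2 arrays left out, 26 lincRNA probes were called in IPC against sham, 15 higher and 11 lower. The share of all probes called in that fit is not given, so the 26 do not tell lincRNA probes from the array as a whole.

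A pair of probes was detected on all 5 IPC arrays and on no sham array. MM9LINCRNAEXON10888- had a measured mean of -2.29 in IPC and of -3.38 in sham, and was at least 1.54-fold higher in IPC (adjusted p = 3.16e-05, and 0.0156 with slide as a block). It was detected on 4 I/R arrays. mouselincRNA0072- was at least 1.59-fold higher (adjusted p = 0.0225, and 0.488 with slide as a block), with IPC arrays at 0.16, -3.08, -2.41, -3.13 and -2.79, so that IPC array 1 stood far above the rest. Without that array its bound was 1.04-fold. It was detected on exactly the 7 arrays of slide 1, I/R arrays 4 and 5 included, and not on slide 2. Both bounds set the IPC mean against the lowest signal that counted as well above background on each sham array, or the probe's own signal where that was higher. Both probes had enough detected arrays to be tested only through the IPC group, where they are high, so their p-values are given as a description and support nothing. Neither bound reached 2-fold, and they are named after their values were seen.

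Slide as a block carries the comparison through the I/R arrays of both slides. With it, 35 lincRNA probes were called in IPC against sham (18.1%), against 20.9% of all probes. Of these 35, 10 were higher (5.18%, against 11.0% of all) and 25 lower (13.0%, against 9.86%). The median difference over the 193 probes went from 0.07 without the block to -0.23 with it, and over all probes it was -0.01 in both. Of the 38 probes called without the block, 18 were called in the same direction with it. The sign turned for 3 of the other 20: MM9LINCRNAEXON10541+ (0.69 without and -0.23 with the block), mouselincRNA0561+ (1.53 and -0.35) and mouselincRNA1636+ (0.95 and -0.05). mouselincRNA1011+ and mouselincRNA0133- were among the 18, with differences of -1.65 (adjusted p = 0.000452) and 1.92 (adjusted p = 0.00334).

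For mouselincRNA0413-, mouselincRNA0441+ and mouselincRNA0901- the call of IPC against sham was lost with the block. For mouselincRNA0413- the difference was much the same, 0.93 without and 0.95 with the block, and its SE went from 0.23 to 0.42 (adjusted p = 0.124 with the block). The difference fell from 1.01 to 0.67 for mouselincRNA0441+ (adjusted p = 0.153), and went from -0.51 to -0.26 for mouselincRNA0901- (adjusted p = 0.0961). MM9LINCRNAEXON10569-, mouselincRNA0490- and mouselincRNA0706+ had larger differences with it, -0.76, -1.09 and -0.96, than without it, -0.39, -0.49 and -0.33. The I/R levels of these probes differed between the slides. mouselincRNA0490-, for example, stood at -1.66, -1.96 and -1.72 on I/R arrays 1 to 3 and at -1.11 and -1.26 on I/R arrays 4 and 5, with sham between -1.27 and -1.03 and IPC between -1.77 and -1.50.

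**Figure D4:**
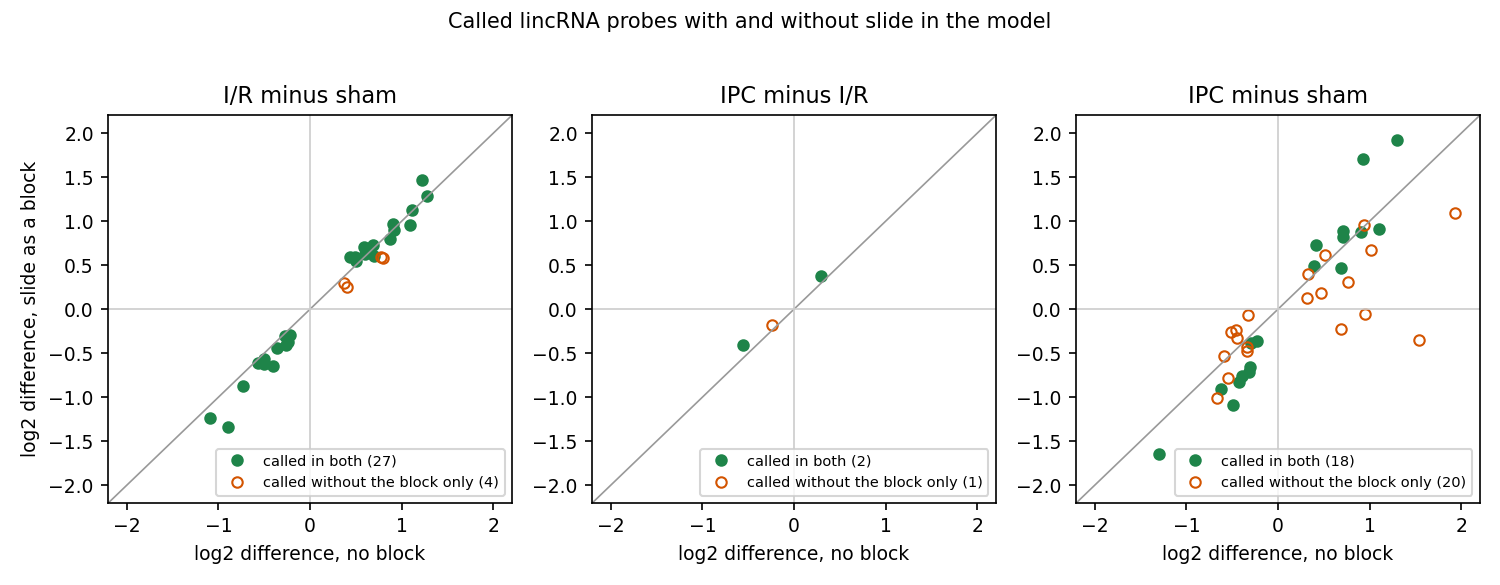
Log2 difference of each called lincRNA probe with slide as a block (vertical axis) against the difference without it (horizontal axis) in the 3 comparisons, with filled points for calls made both ways, open points for calls made without the block alone, and the line of equal values. Of 31, 3 and 38 called probes, 27, 2 and 18 were called in the same direction with the block, and 3 open points in IPC minus sham lie on the other side of 0.

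mouselincRNA0344- was called in all 3 comparisons. In none of the comparisons were both probes of a number called: of the 30 probes called in IPC against sham that have a partner, 11 partners were tested and 18 were detected on no array. In that comparison 19.7% of the tested lincRNA probes and 30.0% of all tested probes were called, so 11 partners leave room for few calls.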

How the data were processed

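Liver RNA was labelled with Cy3 and hybridised to one-colour arrays, 1 per sample, per the labels' protocols. Agilent Feature Extraction 11.0.1.1 wrote the deposited spot intensities, on a grid of build mm9, per the file headers. The processed signal was used, an intensity from which the software had taken the background, per the file headers; its lowest values repeat at a floor. The other deposited columns used are the software's marks for spots above background, saturated or outlying. The sources used here state no further step by the authors.

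Of 61500 spots that are not controls, 300 of negative controls and spots marked as outliers (24 to 62 per array) were left out, and spots of 1 probe were averaged. log2 values minus the array's 75th percentile were fitted with limma 3.58.1 in R 4.3.3, with 1 mean per group over 15 arrays (12 residual degrees of freedom), eBayes and Benjamini-Hochberg adjustment over the 34985 probes tested. Every adjusted p is limma's. The number of arrays limits the precision.

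Probes were named where the call had groups without overlap and detection on all 10 arrays compared (at most 10 per direction), where called in more than 1 comparison, or where among the 5 brightest; the others named were chosen after their values were seen. Members, lists and alternatives were chosen with earlier results of these data known. Alternatives were other background corrections, scales, filters and moderation, array weights, slide or replicate number as a block, fits on part of the arrays and leaving out arrays. normexp (offset 50) used the median signal. On simulated data for all tested probes, the fit recovered 88.1% of probes changed 2-fold in I/R against sham. It recovered 85.1% in IPC against I/R and 79.1% in IPC against sham. Of those changed 1.5-fold it recovered 49.3%, 56.7% and 64.2%. For each comparison, 67 of the 34985 probes were changed 2-fold, 67 by 1.5-fold and 66 by 4-fold. In the data, 30.9%, 7.78% and 30.0% of tested probes were called in I/R against sham, IPC against I/R and IPC against sham. Recovery with as many changed probes as were called in the data was not tested. Recovery of lincRNA probes alone was not tested either. The median SD within a group was 0.40 for tested lincRNA probes and 0.16 for tested ASMM10P probes. The rates therefore do not give the power of the fit on these data, for lincRNA probes or for all probes. Figures were drawn with matplotlib 3.10.9.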

Additional observations from a re-analysis of the deposited data

Results flagged for a closer look

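In 135 groups of 5 arrays (44 probes that were named by the rule or detected with both signs on all arrays, in 3 groups each, and the detected share), 13 had an array whose gap to its nearest neighbour was over 0.71 of the group's range; chance flags about 1 in 20 groups. Sham array 3 was the lowest in 6 of them: MM9LINCRNAEXON11496+ (-2.03, others -1.39 to -1.15), mouselincRNA0413- (-2.51), mouselincRNA0441+ (-1.53), mouselincRNA0522+ (-1.31), mouselincRNA0706- (-1.35) and mouselincRNA1181+ (-2.65). Without sham array 3, I/R differed from sham in 32 lincRNA probes and IPC in 33, where 31 and 38 were called with it. No share over all probes is given for the fit without that array.

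Sham array 4 was the highest for MM9LINCRNAEXON11867+ (-2.19) and the lowest for mouselincRNA0047- (-2.15). Sham array 5 was the highest for MM9LINCRNAEXON10664- (-0.37), and sham array 2 for mouselincRNA0453+ (5.47). In I/R, array 3 was the lowest for mouselincRNA0735+ (0.96, others 1.92 to 1.93) and array 5 the highest for mouselincRNA1011+ (-1.26). In IPC, array 5 was the lowest for MM9LINCRNAEXON11867+ (-4.14). What set these arrays apart was not tested.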

How the results depend on the processing

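Called lincRNA probes in I/R against sham (31) numbered 54 with array weights and 49 with slide as a block. Those in IPC against I/R (3) numbered 25 with array weights (19 higher, 6 lower), 11 with slide as a block (1 higher, 10 lower), 6 with no filter on dim probes, 5 with normexp and the 75th percentile, and 1 each with median scaling, with the arrays of the 2 groups alone, with the replicate block and without IPC arrays 1 and 5, the last of which was added after seeing the data. Those in IPC against sham (38) numbered 25 with slide as a random block and 186 with no filter (24 higher and 162 lower of 729). With no filter the median difference was -0.27 over the 729 lincRNA probes and -0.09 over all probes. In the main fit these medians were 0.07 and -0.01. Undetected probes such as mouselincRNA0344+ lay at -5.24 in sham and -5.60 in IPC. Leaving out 1 array at a time gave 24 to 38, 1 to 4 and 28 to 47. IPC against I/R went to 1 call without I/R array 2 or 5 or without IPC array 1 or 4. The remaining alternatives moved no count by more than 1.5 times. The cause of each change was not tested. Of the alternatives named in this paragraph, the share of all probes called is given, further above, for slide as a block only. The other counts therefore do not tell lincRNA probes from the array as a whole.

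The labels do not say that replicate numbers pair the arrays, and the main fit assumed no pairing. Deviations of same-numbered arrays correlated between -0.37 and 0.51. They are not set against differently numbered arrays here, so they cannot decide whether the numbers pair arrays. With the replicate block, 32, 1 and 34 lincRNA probes were called, again without a share over all probes. Of the named probes' differences under the alternatives, 1438 kept direction and call, 227 lost the call and none turned sign; the 3 probes whose sign turned with slide as a block in IPC against sham are not among those named by the rule. In all alternatives run, 16 of 31, 0 of 3 and 12 of 38 calls were kept. Detection by the looser mark for a positive and significant signal gave shares of 43.9%, 45.8% and 50.6% in sham, I/R and IPC. The level difference from ASMM10P probes was -0.71 among probes detected on all arrays.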
